A study of Mus musculus with 4 samples.

Results

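The nuclear-encoded subunits of the oxidative phosphorylation machinery were followed in ribosome profiling libraries of newborn mouse epidermal keratinocytes. Members were all genes of the table whose symbol begins with Ndufa, Ndufb, Ndufc, Ndufs, Ndufv, Uqcr, Cox4, Cox5, Cox6, Cox7, Cox8 or Atp5, together with Sdha, Sdhb, Sdhc, Sdhd, Cyc1 and Cycs, and 78 of the 10327 genes met this rule. They comprised 34 subunits of complex I and 6 complex I assembly factors of the Ndufaf family, which the rule takes in by their symbol. There were also 4 genes of complex II, 9 of complex III, 9 of complex IV and 14 of complex V. The rule takes in Cox7a2l and Atp5s by symbol too, and they were counted with complexes IV and V. The pair Ndufa4 and Ndufa4l2 was kept apart, because Ndufa4 carries a complex I name but is known to belong to complex IV.

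Oxidative phosphorylation takes place in the inner mitochondrial membrane. Complexes I and II pass electrons to ubiquinone, complex III passes them to cytochrome c and complex IV to oxygen, while complexes I, III and IV pump protons that drive the ATP synthase, complex V. Most subunits are encoded in the nucleus, translated in the cytosol and imported, and they are assembled with partners made inside the mitochondrion in fixed proportions. In the epidermis, basal cells that divide next to the dermis give rise to suprabasal cells that keratinise and finally lose their mitochondria.

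The 4 libraries formed 2 groups of 2, all from untreated mice at postnatal day 0. Control mice (Ctrl) were K14Cre,Mettl14F/+, so they carried a Cre transgene under the keratin 14 promoter, which is active in basal keratinocytes, and a single floxed Mettl14 allele. Conditional knockout mice (cKO) were K14Cre,Mettl14F/F, with the same Cre and both alleles floxed; Mettl14 encodes a core subunit of the enzyme that writes N6-methyladenosine on mRNA. In ribosome profiling, mRNA stretches of 25 to 35 nt that ribosomes shield from RNase are sequenced, so that a value mixes the amount of an mRNA with the number of ribosomes on it. Whether separate animals or pools gave the libraries of a group is not in the labels, and p-values therefore measure the spread between these libraries, which may be technical.

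The libraries held 542074 to 933574 reads over the listed genes, and values are given as CPM, the reads of a gene per 1000000 reads of the library. Mettl14 itself stood at 27.9 and 27.2 CPM in Ctrl 1 and Ctrl 2 and at 9.22 and 5.32 CPM in cKO 1 and cKO 2, with no overlap between the groups. Its log2 change was -1.83 with a standard error (SE) of 0.55, and the limma test, Benjamini-Hochberg adjusted over all genes, gave an adjusted p = 0.122. Markers of basal and suprabasal keratinocytes were abundant in every library. The 7 basal markers, among them Krt5, had a median log2 change of -0.84, with 1 called lower and 6 below both Ctrl libraries in both cKO libraries. The 7 suprabasal markers, among them Krt1 and Krt10, had a median of 0.61, with 1 called higher and 6 above. Of all genes 0.3% were called lower and 0.368% higher, while 34.1% lay below both Ctrl libraries and 11.1% above. Of 8 fibroblast markers 3 were called lower, and their summed level stood at 4534 and 2881 CPM in Ctrl 1 and Ctrl 2 and at 2094 and 1350 CPM in cKO 1 and cKO 2. The 6 red blood cell markers summed to 528 CPM in cKO 1 and to between 81.7 and 121 CPM in the other libraries, and no endothelial or skeletal muscle marker was listed. The keratinocyte and fibroblast markers move with the groups, although the fibroblast median went from -1.15 to -0.36 without Ctrl 1. The part of these markers in the results on the members was not tested. In such bulk libraries, fewer cells of a type and less RNA per cell cannot be told apart.

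The rule matches 96 protein-coding genes of the mouse annotation (GENCODE M21), and 18 of them were not analysed here. The coding sequence of each was split into runs of 28 bases, about the length of a footprint, and the share of runs that also occur in a transcript of another gene was counted. In 7 of the 18 every run was shared. These were Atp5g1, Atp5g2, Atp5l, Cox7c, Cycs, Ndufab1 and Ndufb4, among them the only gene of the rule for somatic cytochrome c (Cycs), whose runs are shared with 20 other genes, 18 of them pseudogenes. In 9 of the 18 under 1% of the runs were shared. They include the isoforms known from muscle (Cox6a2, Cox7a1, Cox8b), testis (Cox6b2, Cox7b2, Cox8c) and lung (Cox4i2), and the assembly factors Ndufaf3 and Ndufaf8. The other two, Cox6c and a second identifier of Atp5o, lay between, at 69.2% and 94.6%. Among the 78 genes with values, 24 shared no run, the median was 4.42% and the highest was Uqcrb with 91.8%. The 11 members with over 50% of their runs shared had a median Ctrl level of 110.1 CPM per 1000 coding bases (Ctrl range 8.03 to 352), against 164 for the other 67. Across the 78 members, which share the same libraries, the Spearman correlation between the shared share and the Ctrl level per length was -0.068, and that with the log2 change was -0.071. The median log2 change was -0.50 over the 11 and -0.31 over the 67. The rule's genes whose whole coding sequence recurs elsewhere have no value here.

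**Figure D1:**
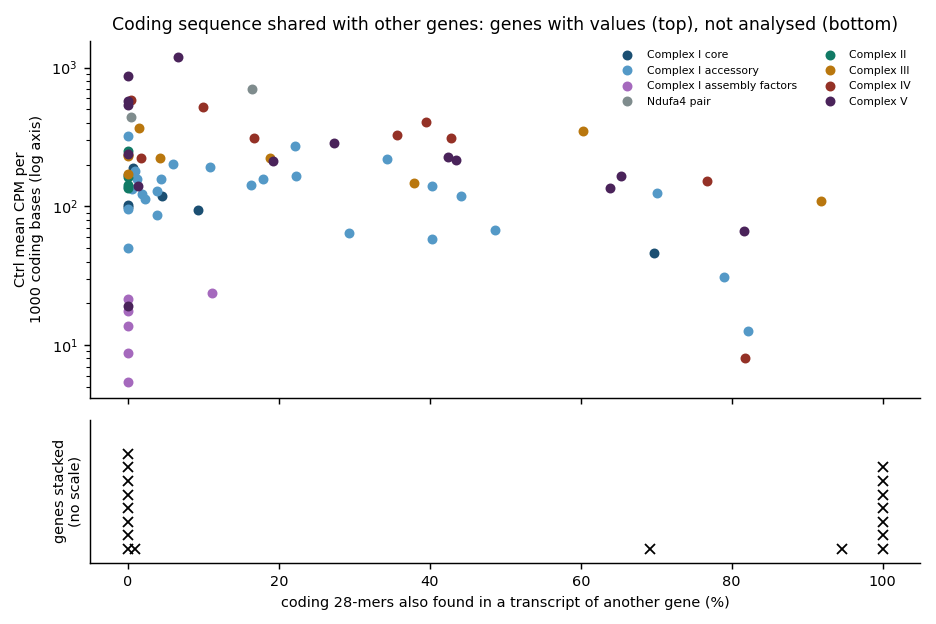
Share of coding 28-mers (runs of 28 bases) that also occur in a transcript of another gene (x axis, percent) against the mean Ctrl level in CPM per 1000 coding bases (y axis, log scale) for the 78 members, 1 point per gene coloured by complex. The lower panel stacks the 18 genes of the rule that were not analysed here, with no scale on its y axis; 7 of them sit at 100%, where no member with a value lies.

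The c subunit of the ATP synthase has genes whose whole coding sequence recurs elsewhere and a gene for which none does. Its genes are printed here, without the pseudogenes. The ring of this subunit in the membrane is built from 1 mature protein that 3 genes encode, and only Atp5g3 had values. The first 90 of the last 225 coding bases of each gene are printed from the GENCODE M21 transcripts, 5′ to 3′. Capitals in Atp5g1 (chromosome 11) and Atp5g2 (chromosome 15) mark bases that differ from Atp5g3 (chromosome 2), and capitals in Atp5g3 mark bases that differ from either.
Atp5g1: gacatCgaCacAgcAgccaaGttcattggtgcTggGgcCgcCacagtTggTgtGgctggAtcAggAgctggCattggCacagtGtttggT
Atp5g2: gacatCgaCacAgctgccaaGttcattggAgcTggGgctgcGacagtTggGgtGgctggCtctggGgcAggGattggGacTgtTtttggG
Atp5g3: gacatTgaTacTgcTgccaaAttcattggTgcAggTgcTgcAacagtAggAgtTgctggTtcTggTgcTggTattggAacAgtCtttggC
Over the 225 bases Atp5g1 differed from Atp5g3 at 45 and Atp5g2 at 48 positions, and the longest run without a difference was 11 and 8 bases, so a footprint of Atp5g3 is distinct from both. All 28-base runs of Atp5g1 and of Atp5g2 recur in pseudogenes, 6 for each, and those of Atp5g3 recur in none.

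Promoters of respiratory genes are known for sites of the nuclear respiratory factor NRF1. Of the 78 members, 64 matched the RefSeq promoter table (build GRCm38.p6), which holds 250 bases before to 50 after each start. The NRF1 motif, GCGCA and GCGC with any 1 base between them, searched on both strands, occurred in a window of 17 of the 64 members (26.6%), of 12.1% of the 8260 table genes that matched, and in 4.60% of all 32851 windows. For printing, the motif had to lie wholly before both the GENCODE start and the gene's most upstream RefSeq start. At least 100 bases of the window had to lie before both starts. The most abundant members, by mean CPM, that met these conditions, 1 for each complex, are printed over 100 bases on the gene's strand with the motif in capitals. They are Ndufa11 of complex I (chr17:56717657-56717756, plus strand), Sdha of complex II (chr13:74350284-74350383, minus), Cox6a1 of complex IV (chr5:115349066-115349165, minus) and Atp5h, the d subunit of complex V (chr11:115420006-115420105, minus). Sdha and Cox6a1 hold the motif at 2 places. No member of complex III met these conditions, although Uqcrc1 holds the motif in a window. In complex V, Atp5c1, Atp5g3, Atp5o and Atp5k hold it too and are more abundant than Atp5h, but did not meet the conditions.
Ndufa11: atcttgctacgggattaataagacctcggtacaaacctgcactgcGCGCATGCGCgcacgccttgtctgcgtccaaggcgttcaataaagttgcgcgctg
Sdha: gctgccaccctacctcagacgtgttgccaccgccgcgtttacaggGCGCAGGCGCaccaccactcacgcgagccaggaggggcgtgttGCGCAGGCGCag
Cox6a1: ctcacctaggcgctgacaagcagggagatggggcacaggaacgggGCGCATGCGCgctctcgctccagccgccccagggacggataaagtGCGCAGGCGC
Atp5h: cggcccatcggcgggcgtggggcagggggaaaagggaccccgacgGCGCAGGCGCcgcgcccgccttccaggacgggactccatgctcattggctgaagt
The median log2 change was -0.35 over the 17 members with the motif and -0.26 over the other 47 matched members, a description with no test. The ETS motif CCGGAAG was present in 16 members (25.0%, against 20.9% of table genes), the YY1 motif AAGATGG in 10 (15.6%, against 8.64%) and CCAAT in 26 (40.6%, against 42.7%), each on either strand. A match describes these letters only and is not a site shown to be bound.

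Levels between genes were compared as CPM per 1000 coding bases. In the Ctrl libraries Atp5b, the catalytic beta subunit of the ATP synthase, was highest at 1193 ± 28.6 (SD, n = 2), followed by its alpha partner Atp5a1 at 868 ± 119.6 and by Ndufa4 at 699.8 ± 208. Atp5a1 and Ndufa4 did not differ beyond their spread. Cox4i1 and Atp5g3 followed at 579.6 ± 42.8 and 579 ± 5.98, with overlapping values, and Atp5d at 539.6 ± 12.3, below both libraries of each. Complex I subunits were mostly lower, from 12.6 for Ndufs5 to 320.2 for Ndufc2. The assembly factors, which are not kept in the finished complex, lay at the bottom of the order, between 5.45 for Ndufaf5 and 23.7 for Ndufaf4. Below 25 CPM per 1000 coding bases there were also Atp5s, Ndufs5 and Cox7a2l, a factor known for joining complexes III and IV; Ndufs5 and Cox7a2l share over 80% of their runs with other genes.

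The question of the design, what loss of Mettl14 changes in ribosome-bound mRNA, was then asked of the members. No member passed the test: 0 of 78 were called by limma, against 69 of 10327 genes (0.668%). The count over all genes was 0 without either cKO library and 139 without Ctrl 2, while that of the members stayed at 0. The smallest adjusted p among members was 0.121, for Ndufa8 and Atp5f1. At an unadjusted p under 0.05 there were 15 members, 19.2% of the 78, against 14.3% of all genes. edgeR on the recovered reads and DESeq2 called 0 members too. At an unadjusted p under 0.05 edgeR had 14 members on library totals (17.9%, against 14.2% of all genes) and 5 with TMM scaling (6.41%, against 10.8%), and DESeq2 had 0 (against 4.35%). The members' share was thus above that of all genes when libraries were scaled by their totals only, and below it with TMM scaling or DESeq2.

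As a share of all reads, members stood at 1.03% and 1.07% in Ctrl 1 and Ctrl 2 and at 0.803% and 0.853% in cKO 1 and cKO 2. The 95% exact binomial intervals, which cover counting error only, ran from 1.01% to 1.05%, 1.05% to 1.10%, 0.779% to 0.827% and 0.832% to 0.874%. Both cKO shares were below both Ctrl shares, and the intervals of the 2 libraries within a group did not overlap either, so counting error does not cover the spread between libraries. The ratio of the cKO mean to the Ctrl mean of the summed CPM was 0.789, and it was 0.765 to 0.812 with any 1 library left out. With TMM scaling, which sets libraries to a common level over most genes, the ratio was 0.941. For 37 members both cKO values were below both Ctrl values, 47.4% of the 78, where the same held for 34.1% of all genes, and for 5 members they were above both (6.41%), against 11.1% of all genes. After TMM scaling the counts were 22 below (28.2%, against 19.5% of all genes) and 13 above (16.7%, against 21.1%).

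The log2 change was negative for 64 members (82.1%), and for 67.9% of all genes. Its median was -0.33 over the members and -0.245 over all genes, a difference of -0.082. After median centring the 2 medians were -0.12 and -0.037, and with edgeR and TMM scaling -0.073 and 0.0018. Genes of like abundance, the 3098 other genes between 33.5 and 115.6 CPM (the quartiles of the members), had a median of -0.24, and 37.9% of them lay below both Ctrl libraries.

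**Figure D2:**
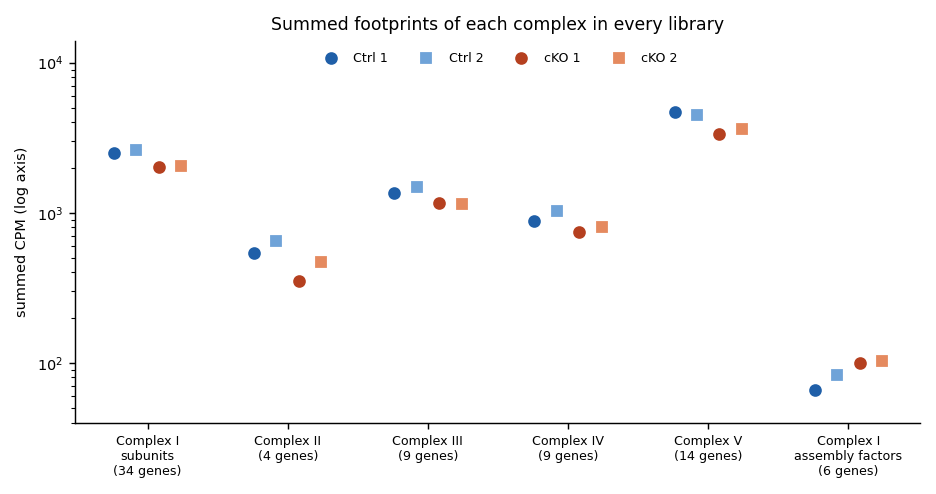
Summed CPM of the members of each complex (y axis, log scale) in every library, 1 point per library; the x axis gives the complexes and the number of genes summed. In each of complexes I to V both cKO points lie below both Ctrl points, and in the complex I assembly factors both lie above. Complex IV is summed without Ndufa4 and Ndufa4l2, so the order of its points holds only for the 9 genes summed.

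The complexes did not lie equally far from Ctrl, and the differences between complexes were not tested. The ratio of the summed cKO to the summed Ctrl CPM was 0.792 for complex I subunits, 0.691 for complex II, 0.807 for complex III, 0.810 for complex IV and 0.759 for complex V, and with TMM scaling it was 0.945, 0.827, 0.964, 0.968 and 0.905 in the same order. For the assembly factors it was 1.35, and 1.61 with TMM scaling. The complex IV sum leaves out Ndufa4, a complex IV subunit kept apart, which averaged 172 CPM in Ctrl and 218 CPM in cKO. For Ndufa4 and Ndufa4l2 together the ratio was 1.13, and 1.36 with TMM scaling. The complex IV ratio therefore holds only for the 9 genes summed.

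**Figure D3:**
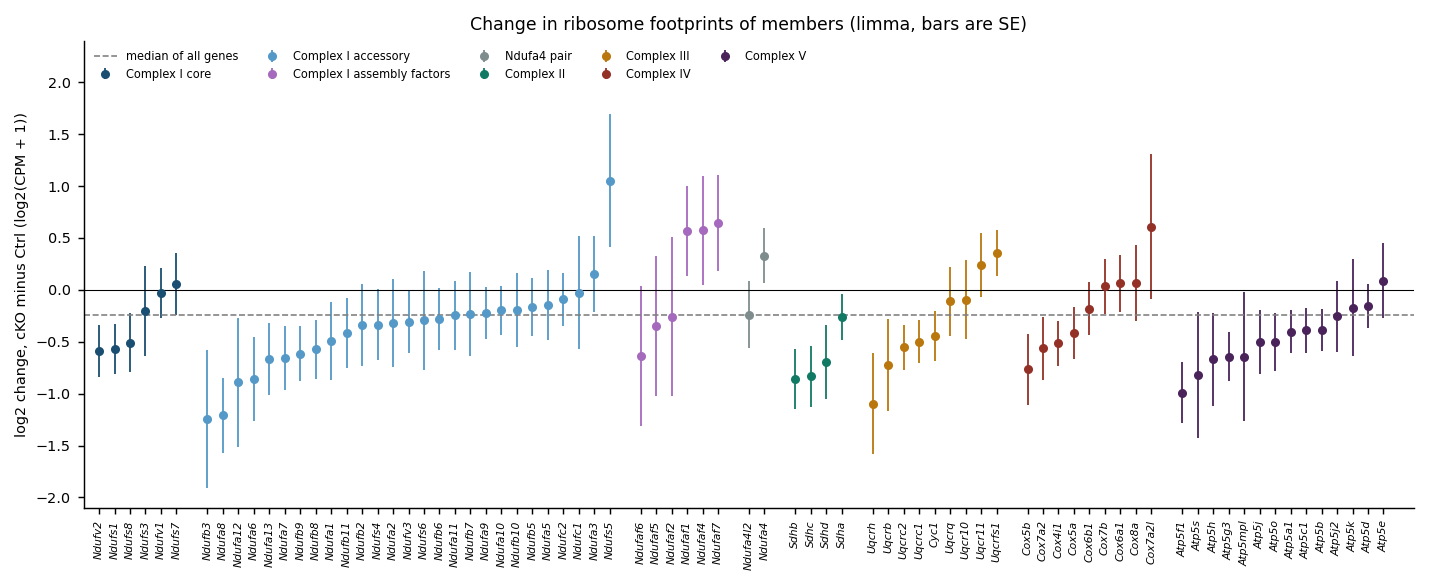
Log2 change of the members that are reported by name, between cKO and Ctrl on the log2(CPM + 1) scale (y axis), with the limma standard error as bar, ordered within each complex (x axis, gene symbols); the dashed line is the median of all genes. Most points lie below 0, and all 4 of complex II lie below the dashed line, Sdha by only 0.017 (SE 0.22).

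In complex I, the proton pump that oxidises NADH, 31 of 34 subunits had a negative log2 change, as did 67.9% of all genes, and 15 (44.1%) lay below both Ctrl libraries in both cKO libraries, as did 34.1% of all genes. The median was -0.30, and -0.091 after median centring. The 7 nuclear core subunits, which carry the flavin and the iron-sulphur clusters, had a median of -0.20, and the 27 accessory subunits, which surround the core, of -0.31. With edgeR and TMM scaling the medians were -0.12 for the core and -0.047 for the accessory subunits, so their order depended on the method.

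Ndufa8, an accessory subunit with paired cysteines that is imported into the intermembrane space, stood at 57.8 and 84.9 CPM in Ctrl 1 and Ctrl 2 and at 36.9 and 23.9 CPM in cKO 1 and cKO 2. Both cKO libraries were lower than both Ctrl libraries. Its log2 change was -1.21 (SE 0.36, adjusted p = 0.121 by limma), and it was -0.98 with edgeR and TMM scaling. Ndufa6, a small accessory subunit of the LYR family, stood at 41.8, 54.5, 18.4 and 35.9 CPM in the same order, again without overlap, and its log2 change was -0.86 (SE 0.41, adjusted p = 0.337 by limma).

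The values of the core subunits were unequal. Ndufs1, the largest iron-sulphur subunit, stood at 238 and 173 CPM in Ctrl and at 129 and 144 CPM in cKO, and Ndufv2, which holds an iron-sulphur cluster of the NADH arm, at 132 and 149 CPM against 99.6 and 86.4. Both genes were lower in both cKO libraries, with log2 changes of -0.57 (SE 0.24) and -0.59 (SE 0.25). Their adjusted p of 0.285 and 0.298 (limma) did not pass. Ndufv1, which binds NADH and the flavin, stood at 135 and 149 CPM against 129 and 149. Its groups overlapped and its log2 change was -0.032 (SE 0.24), and Ndufs7, the core subunit with the highest change, had 0.059 (SE 0.30, adjusted p = 0.945 by limma). These 4 genes were set side by side after their values were seen, apart from Ndufs7, and the differences between them were not tested.

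Among the most abundant complex I subunits per length, Ndufc2 stood at 333, 307, 272 and 332 CPM per 1000 coding bases in Ctrl 1, Ctrl 2, cKO 1 and cKO 2, and Ndufa7 at 209, 340.3, 179.6 and 157 in that order. The values of Ndufc2 overlapped between groups and those of Ndufa7 did not. Ndufa3 had a log2 change of 0.15 (SE 0.37), with overlapping groups. Ndufs5 had the highest value in the complex, a log2 change of 1.05 (SE 0.64), but it rests on 3, 3, 5 and 7 reads and 82.1% of its runs are shared with other genes.

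The Ndufaf assembly factors guide the building of complex I and leave it when it is complete. Ndufaf1, which takes part in assembling the membrane arm, stood at 23.6 and 19.2 CPM in Ctrl 1 and Ctrl 2 and at 36.9 and 27.9 CPM in cKO 1 and cKO 2. Ndufaf4, another early factor, stood at 11.8, 12.8, 16.6 and 21.3 CPM, and Ndufaf7, a methyltransferase, at 15.0, 20.8, 31.4 and 25.3 CPM. In these 3 of the 6 genes both cKO libraries were above both Ctrl libraries, as in 11.1% of all genes. Their log2 changes were 0.57 (SE 0.43), 0.58 (SE 0.53) and 0.64 (SE 0.46), with adjusted p of 0.583, 0.655 and 0.557 (limma). The other 3, Ndufaf2, Ndufaf5 and Ndufaf6, had log2 changes of -0.26, -0.35 and -0.64 and overlapping groups. Ndufaf2, which is known to work late in assembly, ranged most widely, from 1.84 CPM (1 read) in cKO 1 to 21.3 CPM (16 reads) in cKO 2. Its log2 change was 0.56 with edgeR on library totals and 0.81 with edgeR and TMM, so its sign depended on the method. The median over the 6 was 0.16, and it changed sign to -0.10 when Ctrl 1 was left out. It was 0.36 after median centring, 0.56 with edgeR on library totals and 0.81 with edgeR and TMM, so it moved with the model as well as with the scaling. The 6 genes together held 62, 52, 54 and 77 reads.

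A second list of 8 complex I assembly genes that do not carry an Nduf symbol did not lie above Ctrl. None was called, their median log2 change was -0.47, and Acad9, the most abundant of them, stood at 301, 370.1, 332 and 309 CPM.

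Complex II, succinate dehydrogenase, is the only complex whose subunits are all encoded in the nucleus, and it also works in the tricarboxylic acid cycle. Sdha, the flavin subunit that oxidises succinate, stood at 249 and 292 CPM in Ctrl 1 and Ctrl 2 and at 210.3 and 239 CPM in cKO 1 and cKO 2. Sdhb, which carries the iron-sulphur clusters, stood at 106, 135, 53.5 and 79.8 CPM. In both genes the CPM values of the cKO libraries were lower without overlap. The log2 change of Sdha was -0.26 (SE 0.22, adjusted p = 0.617 by limma), close to the median of all genes, and that of Sdhb was -0.86 (SE 0.29, adjusted p = 0.166). With edgeR and TMM scaling the log2 changes were -0.0019 for Sdha and -0.57 for Sdhb.

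Sdhc and Sdhd anchor the enzyme in the membrane and form the ubiquinone site. Sdhc stood at 131 and 122 CPM in Ctrl and at 51.7 and 95.8 CPM in cKO. Sdhd stood at 50.3 and 104 CPM in Ctrl and at 36.9 and 53.2 CPM in cKO. Sdhc was lower in both cKO libraries, while cKO 2 of Sdhd lay above Ctrl 1. Their log2 changes were -0.83 (SE 0.30, adjusted p = 0.188 by limma) and -0.70 (SE 0.36, adjusted p = 0.381). The median of the complex was -0.77, or -0.48 with edgeR and TMM scaling, and it ranged from -1.05 without cKO 2 to -0.42 without cKO 1. In each of the 4 genes the lower cKO library was cKO 1, the one with fewest reads.

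In complex III, which hands electrons from ubiquinol to cytochrome c, the subunits had log2 changes of both signs. Uqcrc1 and Uqcrc2 are the large core proteins of its matrix side. Uqcrc1 stood at 499 and 559 CPM in Ctrl 1 and Ctrl 2 and at 382 and 366 CPM in cKO 1 and cKO 2, and Uqcrc2 at 293, 309, 227 and 185 CPM. Both were lower in both cKO libraries, with log2 changes of -0.50 (SE 0.20, adjusted p = 0.264 by limma) and -0.55 (SE 0.22, adjusted p = 0.247).

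Cyc1, the cytochrome c1 that carries a haem, stood at 163 and 171 CPM in Ctrl and at 114 and 132 CPM in cKO, with a log2 change of -0.44 (SE 0.24). Uqcrfs1, the Rieske iron-sulphur protein, which is known to be inserted into the complex late in its assembly, stood at 172 and 209.9 CPM in Ctrl 1 and Ctrl 2 and at 239.8 and 247 CPM in cKO 1 and cKO 2. Cyc1 was lower and Uqcrfs1 higher in both cKO libraries. The log2 change of Uqcrfs1 was 0.35 (SE 0.22, adjusted p = 0.489 by limma) and lay between 0.21 and 0.50 with any 1 library left out.

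A ratio of 2 genes within a library does not depend on how libraries are scaled. Per coding base, Uqcrfs1 over Uqcrc1 stood at 0.605 and 0.658 in Ctrl 1 and Ctrl 2 and at 1.10 and 1.18 in cKO 1 and cKO 2. Uqcrfs1 over Cyc1 was 1.26, 1.45, 2.49 and 2.23 in the same order. In both ratios the cKO libraries lay above the Ctrl libraries by more than the spread within either group. Uqcrc1 over Uqcrc2 was 1.61, 1.71, 1.59 and 1.87, with overlapping groups. The pairs were chosen after the values were seen, and with 2 libraries against 2 an exact two-sided permutation test cannot give a p below 0.33.

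**Figure D4:**
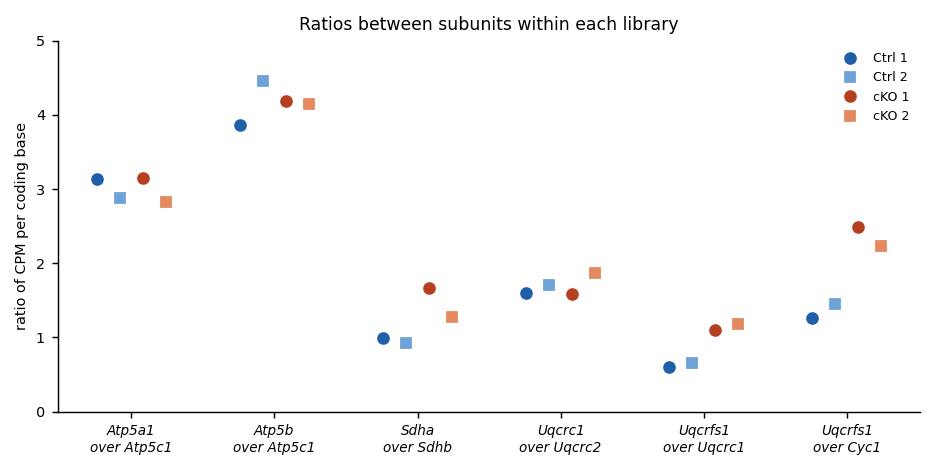
Ratio of CPM per coding base between pairs of subunits (y axis, linear from 0; x axis, the pairs) in every library, 1 point per library. Uqcrfs1 over Uqcrc1 and over Cyc1, and Sdha over Sdhb, are higher in both cKO libraries than in both Ctrl libraries, while Atp5a1 and Atp5b over Atp5c1 overlap between the groups.

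The small subunits of complex III rest on fewer reads. Uqcrh, the acidic hinge protein beside cytochrome c1, stood at 50.3 and 28.8 CPM in Ctrl and at 27.7 and 10.6 CPM in cKO, and Uqcrb, which borders the ubiquinone site, at 46.1 and 27.2 CPM against 16.6 and 26.6. Both sets of values did not overlap, by a margin of under 2 CPM. Their log2 changes were -1.10 (SE 0.49) and -0.73 (SE 0.44), and 91.8% of the runs of Uqcrb are shared with other genes. Uqcr11 had a log2 change of 0.24 (SE 0.31), with overlapping groups, and 60.3% of its runs are shared with other genes. The median over the complex was -0.44, or -0.18 with edgeR and TMM scaling.

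In complex IV, cytochrome c oxidase, the nuclear subunits surround a catalytic core made in the mitochondrion. The median log2 change of the 9 measured members was -0.18. It was 0.026 after median centring, 0.092 with edgeR and TMM scaling and 0.0053 without cKO 1. It was -0.39 without Ctrl 1, -0.37 without cKO 2 and -0.30 with a filter of 10 CPM, so it had no fixed sign. That filter leaves out Cox7a2l, which rests on 2, 2, 4 and 2 reads in Ctrl 1, Ctrl 2, cKO 1 and cKO 2. Cox4i1, the largest nuclear subunit, stood at 278 and 309 CPM in Ctrl 1 and Ctrl 2 and at 212 and 198 CPM in cKO 1 and cKO 2. Cox5b, which binds zinc on the matrix side, stood at 52.5, 65.7, 35.1 and 33.2 CPM, and Cox7a2 at 68.6, 86.5, 48.0 and 55.9 CPM. All 3 were lower in both cKO libraries, with log2 changes of -0.52 (SE 0.22), -0.77 (SE 0.34) and -0.56 (SE 0.31) and adjusted p of 0.283, 0.318 and 0.407 (limma). Of the runs of Cox5b 76.7% are shared with another gene. Cox5a, which makes up the matrix side together with Cox5b, was the fourth gene without overlap, at 132 and 139 CPM in Ctrl and 103 and 99.7 CPM in cKO. These 4 genes were 44.4% of the 9, where 34.1% of all genes lay below both Ctrl libraries in both cKO libraries.

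Cox6a1, Cox6b1, Cox7b and Cox8a had overlapping groups and log2 changes of 0.062, -0.18, 0.034 and 0.063. Per length, Cox6b1 stood at 461 and 584 CPM per 1000 coding bases in Ctrl and 400.4 and 521 in cKO, and Cox7b at 459.7 and 354 in Ctrl and 399.7 and 427 in cKO. Where subunits have tissue isoforms, the value is that of the widely expressed form: Cox4i1, Cox6a1, Cox6b1, Cox7a2 and Cox8a had values, and Cox4i2, Cox6a2, Cox6b2, Cox7a1, Cox8b and Cox8c were not analysed here.

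Ndufa4, the complex IV subunit with a complex I name, stood at 136 and 208 CPM in Ctrl 1 and Ctrl 2 and at 166 and 270.0 CPM in cKO 1 and cKO 2. Its relative Ndufa4l2, known as a gene induced by hypoxia, stood at 431, 448, 587 and 234 CPM per 1000 coding bases in the same order. Both overlapped between the groups, and for Ndufa4l2 the 2 cKO libraries lay on either side of Ctrl. The log2 changes were 0.33 (SE 0.26) and -0.24 (SE 0.32).

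Complex V, the ATP synthase, held the largest share of the module, 0.460% of all reads in Ctrl and 0.349% in cKO on average. Of 14 members 13 had a negative log2 change (67.9% of all genes) and 10, or 71.4%, lay below both Ctrl libraries in both cKO libraries (34.1% of all genes). The median was -0.45, or -0.15 with edgeR and TMM scaling. Atp5a1 stood at 1580.0 and 1299 CPM in Ctrl 1 and Ctrl 2 and at 1101 and 1068 CPM in cKO 1 and cKO 2, and Atp5b at 1862, 1926, 1400.2 and 1497 CPM. Both were lower in both cKO libraries, with log2 changes of -0.40 (SE 0.21) and -0.39 (SE 0.21) and adjusted p of 0.381 and 0.398 (limma).

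The head of the enzyme, F1, is built from 3 alpha and 3 beta subunits around 1 each of gamma (Atp5c1), delta (Atp5d) and epsilon (Atp5e). Per copy in the complex and per 1000 coding bases, Ctrl means were 289 CPM for alpha, 398 for beta, 288 for gamma, 539.6 for delta and 238 for epsilon. Alpha over gamma, per coding base, stood at 3.14 and 2.88 in Ctrl 1 and Ctrl 2 and at 3.15 and 2.83 in cKO 1 and cKO 2, and beta over gamma was 3.87, 4.45, 4.19 and 4.15. These ratios overlapped between the groups. For Atp5c1 27.3% of the runs are shared with other genes, and for Atp5a1 and Atp5d 0%.

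**Figure D5:**
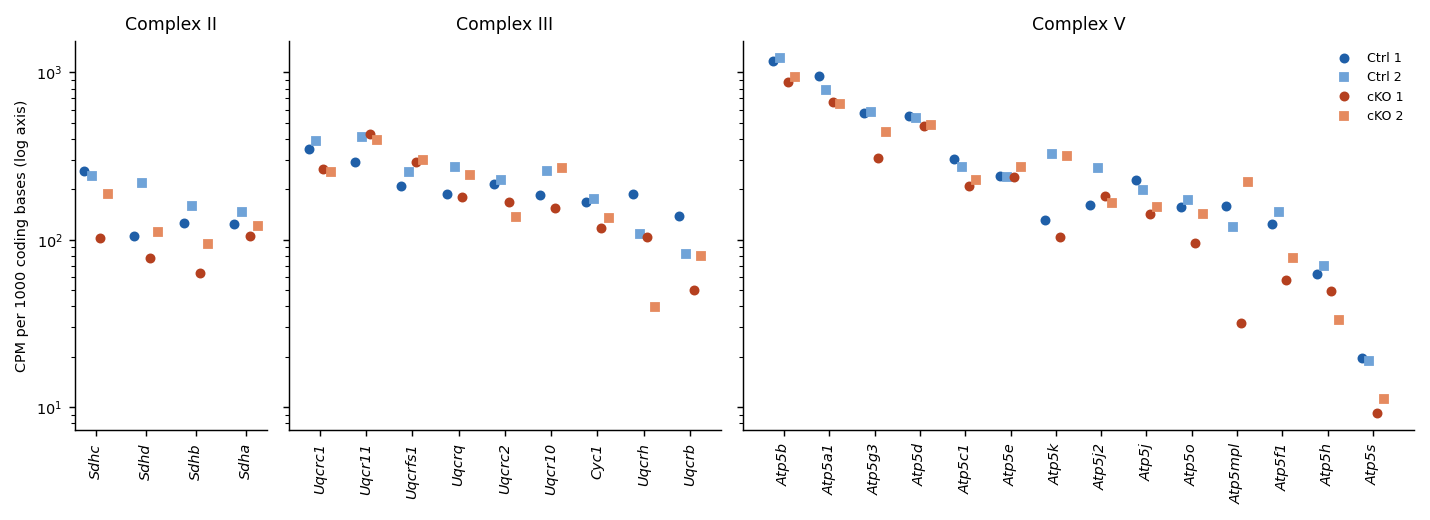
Level of each measured member of complexes II, III and V in CPM per 1000 coding bases (y axis, log scale), ordered by the Ctrl mean (x axis, gene symbols), 1 point per library. In Atp5b, Atp5a1, Uqcrc1 and Sdhb both cKO points lie below both Ctrl points, and in Uqcrfs1 both lie above.

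Among complex V members with at least 20 reads on average, the lowest log2 changes were those of a stalk and a ring subunit. Atp5f1, the b subunit of the peripheral stalk that holds the head still, stood at 95.3 and 112 CPM in Ctrl 1 and Ctrl 2 and at 44.3 and 59.8 CPM in cKO 1 and cKO 2. Atp5g3, the c subunit gene printed above, stood at 243, 247, 131 and 186 CPM. Neither gene overlapped between the groups, and the log2 changes were -0.99 (SE 0.29, adjusted p = 0.121 by limma) and -0.65 (SE 0.24, adjusted p = 0.203). For Atp5f1 63.8% of the runs are shared with other genes, and its exons overlap those of Wdr77, while for Atp5g3 none is shared. At the other end, Atp5d stood at 276 and 268 CPM in Ctrl and 242 and 246 in cKO, and Atp5e at 37.5 and 36.8 against 36.9 and 42.6, with log2 changes of -0.16 (SE 0.21) and 0.090 (SE 0.36).

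Assembly factors and partners of the complexes were counted in the lists named here, none of which had a called gene. The 16 enzymes of the tricarboxylic acid cycle and the pyruvate dehydrogenase complex had a median log2 change of -0.37, with 11 of the 16 below both Ctrl libraries, where 34.1% of all genes lay. Ogdh, the most abundant of them and a subunit of the 2-oxoglutarate dehydrogenase, was above instead, at 494 and 455 CPM in Ctrl and 631 and 649 CPM in cKO, with a log2 change of 0.43 (SE 0.20, adjusted p = 0.332 by limma). The median was -0.28 for 19 genes of mitochondrial protein import and -0.45 for 13 other electron carriers and ubiquinone enzymes, the latter -0.18 without cKO 1. For 19 complex IV assembly factors it was -0.060, with -0.30 without Ctrl 1 and 0.20 without Ctrl 2. The few measured assembly factors of the other complexes had medians of -0.15 for 2 of complex II (-0.63 without cKO 1 and 0.33 without cKO 2), -0.46 for 3 of complex III (-0.72 without cKO 1) and -0.59 for 3 of complex V. With edgeR and TMM scaling the medians were 0.0029 for protein import, 0.21 for the complex IV factors and 0.13 for the complex II factors, so their sign depended on the scaling. Atpif1, the inhibitor of the ATP synthase, stood at 134 and 171 CPM in Ctrl and 94.1 and 107.7 CPM in cKO, with a log2 change of -0.59 (SE 0.25, adjusted p = 0.300 by limma). Every median here stands beside -0.245 for all genes. The 13 subunits encoded in mitochondrial DNA, the partners of these members, were not analysed here.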

How the data were processed

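Ribosome-protected fragments of 4 libraries were sequenced. The deposited table gives CPM values computed by the authors over 10327 listed genes, since each column sums to 1000000. Reads were processed with fastp, HISAT2 and HTSeq on GRCm38 (per the submitters' processing notes). Versions, counted feature and strand setting were not given in the sources used here. Of the members 26 have exons that overlap another gene. Columns headed WT were taken as Ctrl. All values (100%, tolerance 1e-06) were whole multiples of 1 read, worth 1.07, 1.60, 1.84 and 1.33 CPM in Ctrl 1, Ctrl 2, cKO 1 and cKO 2, so reads were recovered; depth limits low genes.

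The test was limma 3.58.1 (R 4.3.3) on log2(CPM + 1) with its mean-variance trend, group only, all 4 libraries, Benjamini-Hochberg adjusted over all genes, called at an adjusted p under 0.05. Fold changes on this scale understate those of low genes. A filter of 1 CPM in at least 2 libraries removed 0 genes. Alternatives were edgeR 4.0.16 on recovered reads (118 genes called; 176 with TMM), DESeq2 1.42.0, median centring, pseudocounts of 0.5 and 5, a filter of 10 CPM, a replicate block and leaving out each library. The fit was tested on simulated data. Of 10327 identifiers 10323 matched GENCODE M21, the source of positions and coding sequence; promoters are from RefSeq.

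Members and lists were chosen with earlier results of these data known. Named in each complex were all members if 5 or fewer, otherwise the 3 highest in CPM per coding length and the 2 highest and 2 lowest changes among those with 20 reads on average, plus paralogs and the most abundant gene of each list; other members were named after their values were seen. For 1 member single-gene values are not reported here; it stays in the counts, sums and medians.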

Additional observations from a re-analysis of the deposited data

How the results depend on the processing

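The members called stayed at 0 under every alternative except the replicate block, in which 9 were called, all lower (Atp5f1, Sdhb, Atp5g3, Uqcrc1, Ndufs1, Ndufa8, Uqcrc2, Cox4i1 and Sdhc), or 11.5% of the 78, beside 582 of all genes called lower (5.64%) and 839 called in either direction (8.12%). Replicate numbers do not pair these libraries by the labels: only 2 pairs exist, and the correlation of equally numbered libraries' deviations was 0.195 over 10327 genes. Under the block Mettl14, with a log2 change of -1.83, passed at an adjusted p of 0.0178. The genes called among all genes, 69 in the main test, numbered 113 after median centring, 118 with edgeR on library totals, 176 with edgeR and TMM and 23 with the stricter filter of 10 CPM, and ranged from 0 (without cKO 1 and without cKO 2) to 139 (without Ctrl 2) when 1 library was left out. A lone library of a group was assumed to vary like the other group. The median log2 change of the members moved from -0.33 to -0.12 after median centring, -0.073 with edgeR and TMM and -0.090 with DESeq2; the summed ratio moved to 0.941 and the members below both Ctrl libraries to 22 with TMM. Of the 78 members 44 kept the sign of their change in all 12 alternatives and 2 more in the 11 that gave them a value; the cause of these shifts was not tested. Low depth limits the assembly factors most.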

Other observations

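Lists of 3 further processes next to the respiratory chain were also measured, none with a called gene. The 11 measured glycolytic enzymes had a median log2 change of -0.14, which was -0.49 without Ctrl 1, -0.30 without cKO 2, 0.20 without Ctrl 2, 0.17 without cKO 1 and 0.11 with edgeR and TMM scaling. Aldoa stood at 281, 434, 275 and 352 CPM in Ctrl 1, Ctrl 2, cKO 1 and cKO 2, with overlapping groups. The 12 carriers and inner membrane proteins had a median of -0.25, and of -0.45 without Ctrl 2. Slc25a3, the phosphate carrier that supplies the ATP synthase, stood at 410.3, 400.5, 373 and 461 CPM, with a log2 change of 0.033 (SE 0.21). The 12 regulators of mitochondrial biogenesis had a median of -0.091, which was -0.36 without Ctrl 1, -0.17 without cKO 1, -0.056 without Ctrl 2, -0.049 without cKO 2 and 0.15 with edgeR and TMM scaling. Nrf1, whose motif was searched above, stood at 34.3 and 44.9 CPM in Ctrl and 29.5 and 19.9 CPM in cKO, with a log2 change of -0.67 (SE 0.41, adjusted p = 0.473 by limma), and was named after its value was seen.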
